A study of Mus musculus with 6 samples.

Results

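Heat shock proteins and J-domain cochaperones are the protein-folding machinery described here, in livers of mice that lack the last enzyme of tyrosine breakdown. The 78 genes were taken from the array table by symbol (Hspa, Hspb, Hspd, Hspe, Hsph, Hsp90, Dnaja, Dnajb, Dnajc, Bag and Hsf names), out of 22180 genes with a probe set that carries a single symbol. They have 87 probe sets, and for the 6 genes with more than 1 the probe set with the highest mean log2 signal over the 6 arrays was used. That mean signal is the only measured value in the choice. The classes hold 11 HSP70 genes, 2 HSP90 genes, 3 HSP110 genes, 7 small heat shock protein genes, 41 DNAJ genes, 2 chaperonin genes, 6 BAG genes, 4 heat shock factor genes and 2 partner genes. All livers came from male C57Bl/6J mice aged 12 weeks with a point mutation in Fah at the last nucleotide of exon 8, which leaves no stable fumarylacetoacetate hydrolase. In the NTBC withdrawal group (3 arrays), NTBC (nitisinone, a drug that blocks tyrosine breakdown upstream of Fah) was stopped at 11 weeks for 7 days. In the continuous NTBC group (3 arrays) it stayed in the drinking water at 8 mg/l. Dextrose at 3% is listed for both groups, and chow in both groups was low in tyrosine and phenylalanine. Both groups carry the Fah mutation, and livers with working Fah were not analysed here, so the contrast is of drug withdrawal within mutant mice.

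HSP70 proteins hold unfolded stretches of other proteins in a cycle driven by ATP. DNAJ proteins bring them substrates and trigger ATP hydrolysis through their J domain, and HSP110 and BAG proteins release the nucleotide. HSP90 finishes the folding of kinases and receptors, small heat shock proteins hold denatured proteins without ATP, and heat shock factor 1 switches on the inducible members when unfolded proteins accumulate in the cytosol. The endoplasmic reticulum and the mitochondria have HSP70 and HSP90 proteins of their own, and those of the endoplasmic reticulum answer to a separate stress response.

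Values are log2 signals of the authors' normalized intensities, given array by array (replicates 1, 2 and 3) or as a group mean ± SD (n = 3), and a change is withdrawal minus continuous with its standard error (SE). A change passed where limma's p, adjusted by Benjamini-Hochberg over all 34472 probe sets, was under 0.05. Signals of different probe sets are not comparable as amounts of RNA, so only changes are set side by side. The replicates are described as biological, with no animal named, so the p-values speak only of the spread among these 6 samples. The hepatocyte marker Alb was near the top of the scale on all 6 arrays (14.11 to 14.24), whereas Ass1 was at 5.25 to 6.77. Summed linear signals of the 7 measured hepatocyte markers were 42875 to 46860 in withdrawal livers and 48087 to 52011 in continuous livers. Of the 7, 2 fell, Cps1 by 1.08 and Ass1 by 0.85 on the log2 scale. With Serpina1a (-0.77), 3 were lower at an unadjusted p under 0.05 in limma. The Ass1 change passed without continuous replicate 1, and with no other single array left out (highest adjusted p = 0.106), nor after median centring. Of 6 endothelial markers 2 rose, with summed linear signals of 1795 to 1942 in withdrawal livers and 1133 to 1390 in continuous livers. Of the 2, Clec4g passed with any array left out, whereas Lyve1 passed only without continuous replicate 1 or 3 (highest adjusted p = 0.130), and not with quantile normalization. The 1 erythroid marker measured, Klf1, fell by 0.63 (adjusted p = 0.0315), and with 1 array left out it passed only without withdrawal replicate 3 (highest adjusted p = 0.166). Of 6 macrophage, 7 stellate and 4 cholangiocyte markers 0 passed in limma, and 1, 2 and 1 of them had an unadjusted p under 0.05. Of 5 lymphocyte and 4 neutrophil markers 0 passed as well, and 1 of each, Cd79a (-0.51) and Ly6g (-0.71), had an unadjusted p under 0.05. Summed acinar pancreas markers were 202 to 276 on withdrawal arrays, against 223, 743 and 246 on continuous arrays. Their part in the results below was not tested, and in whole liver a change in cell numbers and a change of RNA per cell cannot be told apart.

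After withdrawal of NTBC, 24 of the 78 chaperone genes rose and 0 fell (1 lower at an unadjusted p under 0.05, in the limma test). The background was 6.21% of all probe sets higher and 3.20% lower, and 7.58% and 3.39% of genes taken by the same probe set rule, against 30.8% of the chaperone genes higher. Among chaperone genes, 16 of the 39 with signals above their median rose, and 8 of the other 39. In the fit without dim probe sets, 13.7% of the probe sets kept passed in either direction, against 9.40% of all probe sets in the main fit. The part of signal in the gap to all genes was not tested. The median change of the 78 genes was 0.27, against -0.06 over all genes. Of the 78 genes, 9 passed with at least a 2-fold rise, against 2.17% of all probe sets and 2.58% of all genes. They were Hspa1b, Hspb1, Hsph1, Dnajb9, Dnajc12, Bag3, Hsp90aa1, Dnajc10 and Hspa4l. The 3 withdrawal arrays lay wholly above the 3 continuous arrays for 42 of the 78 genes (17.1% of all genes) and wholly below them for 4 (13.4% of all genes). The members nearest the threshold on the inside were Hspa1l (adjusted p = 0.0490) and Hspa4 (0.0487), and on the outside Dnajb14 (0.0536) and Dnajc2 (0.0754).

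**Figure D1:**
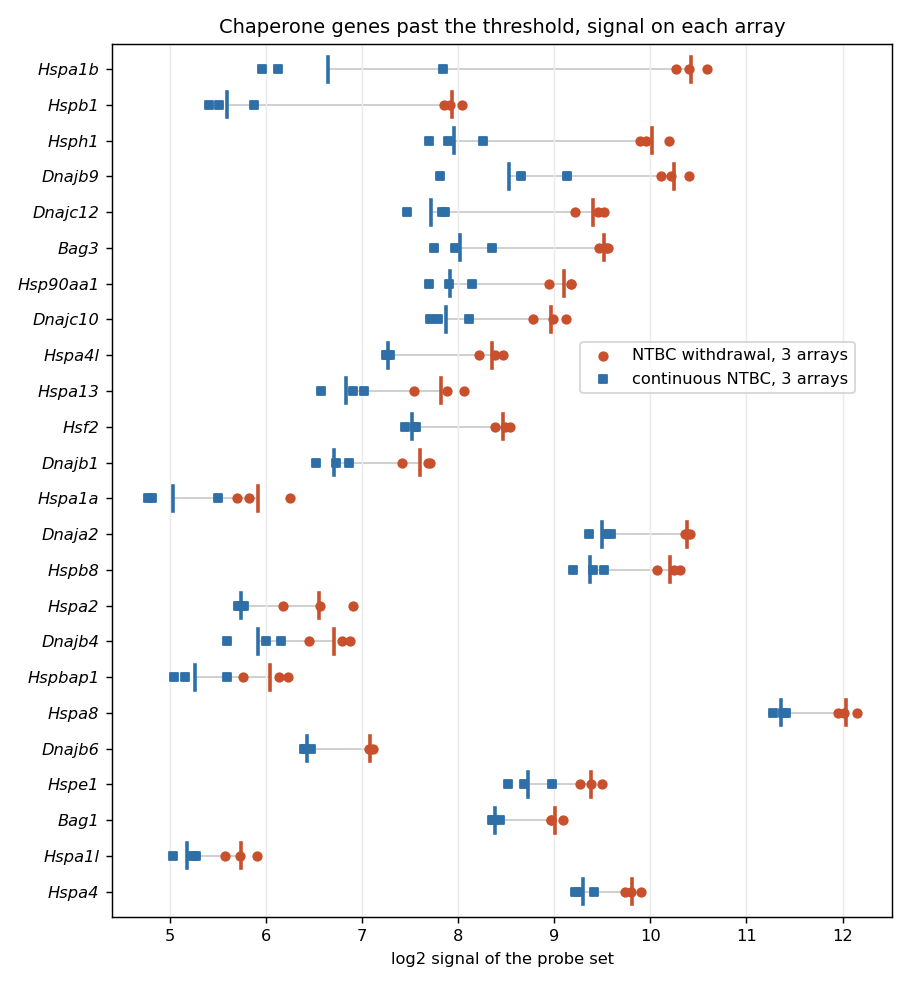
Log2 signal of the 24 chaperone genes that rose after NTBC withdrawal, 1 row per gene ordered by the size of the change, with 1 circle per withdrawal array, 1 square per continuous array and a vertical bar at each group mean. The groups do not overlap in any row, which is no separate result, since the rows were picked by a threshold on these same arrays. Hspa1b shows the widest gap and the widest spread among continuous arrays (5.96 to 7.84).

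How far these calls depend on single arrays differed by gene. Of the 24 genes, 14 passed whichever array was left out and under all of the 14 alternative settings, among them all 9 with a 2-fold rise. Leaving out withdrawal replicate 1 gave 14 chaperone genes higher (4.22% of all probe sets passed in that fit). Leaving out withdrawal replicate 2 gave 15 (5.21%), and leaving out continuous replicate 2 gave 16 (6.03%). Hspa4 and Hspa1l did not pass with any 1 array left out (highest adjusted p = 0.177 and 0.190). Hspe1 passed only without continuous replicate 1 (highest adjusted p = 0.159). Hspa2, Dnajb4, Hspbap1 and Bag1 were lost without withdrawal replicate 1 or 2 or continuous replicate 2 or 3 (highest adjusted p = 0.0943, 0.132, 0.150 and 0.0852). Hspa1a was lost without withdrawal replicate 1 or 2 or continuous replicate 1 or 2 (highest adjusted p = 0.152), Dnajb6 without withdrawal replicate 1 or 2 (0.0713), and Hspa8 without withdrawal replicate 1 (0.0940).

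Among HSP70 genes 6 of 11 rose, with a median change of 0.56. Hspa1b, the stress-inducible cytosolic HSP70, had log2 signals of 10.27, 10.40 and 10.59 in withdrawal livers, against 5.96, 6.13 and 7.84 in continuous livers. All 3 withdrawal arrays were high, and continuous replicate 3 stood above the other two continuous arrays. The change of 3.78 (SE 0.40, 13.7-fold, adjusted p = 3.33e-04) was 3.44 without continuous replicate 1 and 4.38 without continuous replicate 3. Hspa1a, its neighbour with a near-identical product, had 6.25, 5.82 and 5.70 against 4.77, 4.82 and 5.50, a change of 0.89 (SE 0.23, adjusted p = 0.0337). Transcripts of both genes could bind probes of either, so the split between them is uncertain. Hspa8, the constitutive cytosolic HSP70 that also strips clathrin coats, had 12.15, 11.95 and 12.01 in withdrawal livers and 11.41, 11.28 and 11.38 in continuous livers (change 0.68, SE 0.14, adjusted p = 0.0139). Its other 3 probe sets changed by 0.37 to 0.43 and did not pass, and the mean of its 4 probe sets did not pass either. Hspa13, an HSP70-like protein of microsomes, had 8.06, 7.88 and 7.54 against 7.02, 6.57 and 6.91 (change 0.99, SE 0.19, adjusted p = 0.00804). Hspa2, best known from spermatogenesis, had 6.56, 6.91 and 6.18 against 5.77, 5.74 and 5.71. Hspa1l, a testis-enriched relative encoded beside Hspa1a and Hspa1b, had a change of 0.56 on the brighter probe set and -0.01 on the other.

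The main HSP70 proteins of the endoplasmic reticulum and the mitochondria did not pass. Hspa5 (BiP), the HSP70 of the endoplasmic reticulum, had 10.12, 10.18 and 10.03 in withdrawal livers and 9.65, 9.95 and 9.96 in continuous livers (change 0.26, SE 0.15, adjusted p = 0.346). Hspa9 (mortalin), the mitochondrial HSP70, had 12.14, 12.10 and 12.14 against 11.58, 11.43 and 11.86 (change 0.50, SE 0.16, adjusted p = 0.0759). In both genes the groups were apart, yet neither change passed, although that of Hspa9 passed after median centring, with array weights and with the trend and robust options of limma. Hspa14 (0.23), Hspa12a (-0.01) and Hspa12b (-0.15), the last of which is known from endothelial cells, did not pass.

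All 3 HSP110 genes rose. Hsph1 (HSP105), the heat-inducible nucleotide exchange factor of HSP70, had 9.96, 10.19 and 9.89 in withdrawal livers, against 7.90, 7.70 and 8.26 in continuous livers. Every withdrawal array was above every continuous array, for a change of 2.06 (SE 0.18, 4.17-fold, adjusted p = 9.37e-05). Hspa4l had 8.38, 8.47 and 8.22 against 7.25, 7.26 and 7.29 (change 1.09, SE 0.14, adjusted p = 0.00112), and its continuous arrays were nearly equal. Hspa4, the constitutive member, rose by 0.52 (SE 0.14, adjusted p = 0.0487).

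Of the 2 HSP90 genes measured, the inducible cytosolic one rose and that of the endoplasmic reticulum did not pass. Hsp90aa1 had 9.17, 8.95 and 9.18 in withdrawal livers, against 7.70, 8.14 and 7.91 in continuous livers (change 1.18, SE 0.16, 2.27-fold, adjusted p = 0.00155). Hsp90b1 (GRP94) had 12.08, 12.25 and 12.13 against 11.95, 12.33 and 12.13, with overlapping groups (change 0.02, SE 0.15, adjusted p = 0.961). The other cytosolic gene, Hsp90ab1, was not analysed here.

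Small heat shock proteins split into 2 that rose and 5 that did not pass, and the median of the class was -0.06. Hspb1 (HSP25 in the mouse), which also binds actin filaments, had 7.92, 8.04 and 7.85 in withdrawal livers and 5.51, 5.88 and 5.41 in continuous livers. Its change of 2.34 (SE 0.17, 5.05-fold) had the smallest adjusted p of the 78 genes, 3.11e-05. A dimmer probe set for Hspb1 changed by 0.60 (adjusted p = 0.0680). Hspb8, which works with Bag3 in the autophagy of misfolded proteins, had 10.25, 10.31 and 10.07 against 9.52, 9.20 and 9.40 (change 0.84, SE 0.15, adjusted p = 0.00750). Hspb6, Hspb7, Hspb3, Hspb9 and Hspb11, several of them known mainly from muscle, changed by between -0.29 and -0.04. Of 4 muscle markers 0 passed in limma (1 at an unadjusted p under 0.05). Hspb3 was below the lower quartile of the signals on all 6 arrays, as were Dnajb7 and Hsf3.

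**Figure D2:**
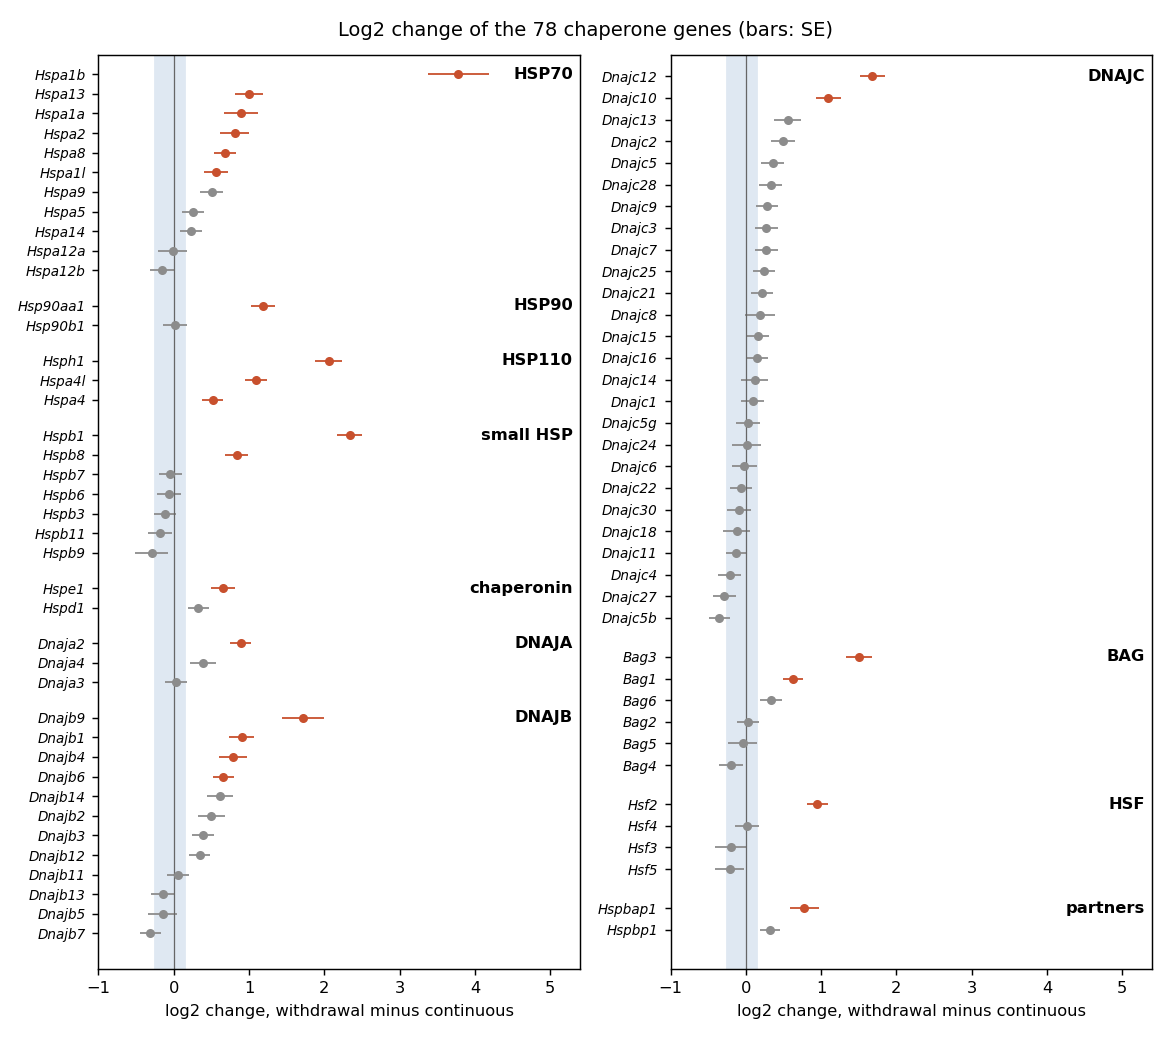
Log2 change of the 78 chaperone genes, withdrawal minus continuous NTBC, as a point with its standard error, grouped by class and ordered by size within each class. Orange marks the 24 genes with an adjusted p under 0.05, all to the right of 0, and the shaded band runs between the quartiles of all probe sets.

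Of the DNAJ genes 7 of 41 rose, with a median change of 0.21, of which 1 was among 3 DNAJA genes, 4 among 12 DNAJB genes and 2 among 26 DNAJC genes. The DNAJC share of 7.69% is near the 7.58% of all genes that rose. DNAJA and most DNAJB proteins are general partners of HSP70, whereas DNAJC proteins share little beyond the J domain and mostly serve single clients or organelles. The subclasses were not tested against each other.

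Dnaja2, a general cytosolic partner of Hspa8, had 10.41, 10.36 and 10.39 in withdrawal livers and 9.54, 9.36 and 9.59 in continuous livers (change 0.89, SE 0.14, adjusted p = 0.00347). Dnajb1 (HSP40), the heat-inducible partner of HSP70 and a feedback inhibitor of heat shock factor 1, had 7.71, 7.69 and 7.42 against 6.52, 6.73 and 6.87. The groups were apart, with a change of 0.90 (SE 0.16, adjusted p = 0.00633). Dnajb4 (0.79, adjusted p = 0.0274) and Dnajb6 (0.66, adjusted p = 0.0129), a suppressor of protein aggregation, rose as well. In Dnajb6 the arrays of each group were nearly equal, at 7.07, 7.08 and 7.11 against 6.4, 6.47 and 6.41. Dnajb9 (ERdj4), which hands HSP70 of the endoplasmic reticulum to the sensor IRE1, had 10.11, 10.22 and 10.40 in withdrawal livers and 8.65, 7.81 and 9.13 in continuous livers. Continuous replicate 2, the array with the high acinar markers, was the lowest of these, and without it the change of 1.71 (SE 0.28, adjusted p = 0.00408) was 1.35. Among other members of the endoplasmic reticulum, that array was the highest continuous array for Hsp90b1, Dnajb11 and Dnajc3. For Hspa13, Dnajb12, Dnajb14, Dnajc1 and Dnajc10 it was the lowest, and for Hspa5 it was neither. The part of acinar tissue in these values was not tested.

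Of the DNAJC genes, Dnajc12 and Dnajc10 rose. Dnajc12 is a cochaperone that in humans binds phenylalanine hydroxylase and related hydroxylases of aromatic amino acids, and its loss there causes high blood phenylalanine. It had 9.52, 9.46 and 9.22 in withdrawal livers, against 7.86, 7.83 and 7.47 in continuous livers. The withdrawal arrays were all above the continuous arrays, with a change of 1.68 (SE 0.17, 3.20-fold, adjusted p = 2.10e-04). Dnajc10 (ERdj5), a disulfide reductase of the endoplasmic reticulum, had 8.99, 9.12 and 8.78 against 8.11, 7.71 and 7.79 (change 1.09, SE 0.17, adjusted p = 0.00276). The other 24 DNAJC genes changed by between -0.35 (Dnajc5b) and 0.56 (Dnajc13) and did not pass. They include Dnajc3 (p58IPK), an inhibitor of eIF2 alpha kinases, with 10.75, 10.94 and 10.74 against 10.35, 10.66 and 10.60, and Dnajc2 (zuotin-related), which works at the ribosome, with a change of 0.49 (adjusted p = 0.0754).

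Bag3, the stress-inducible BAG protein of chaperone-assisted autophagy, had 9.54, 9.56 and 9.47 in withdrawal livers and 7.97, 7.75 and 8.35 in continuous livers. The withdrawal arrays were nearly equal, and the change was 1.5 (SE 0.17, 2.83-fold, adjusted p = 5.63e-04). Bag1, which links HSP70 to the proteasome, rose by 0.63 (9.01 ± 0.07 in withdrawal livers, 8.38 ± 0.05 in continuous livers, n = 3 each, limma adjusted p = 0.0183). Bag2, Bag4, Bag5 and Bag6 did not pass, with changes of -0.20 to 0.33. Hspe1 (HSP10), the lid of the mitochondrial chaperonin, had 9.5, 9.38 and 9.27 against 8.98, 8.69 and 8.52 (change 0.65, SE 0.16, adjusted p = 0.0330). Its barrel Hspd1 (HSP60) had 11.15, 11.15 and 11.14 against 10.78, 10.78 and 10.90 (change 0.33, SE 0.14, adjusted p = 0.182). Hspbap1, a protein that binds Hspb1, rose by 0.78 (adjusted p = 0.0323), and Hspbp1, a nucleotide exchange factor of HSP70, had a change of 0.32 (adjusted p = 0.183).

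Of the heat shock factors, Hsf2 rose. It can pair with heat shock factor 1 on DNA, and it had 8.49, 8.54 and 8.38 in withdrawal livers, against 7.56, 7.45 and 7.55 in continuous livers (change 0.95, SE 0.14, adjusted p = 0.00222). Hsf3, Hsf4 and Hsf5 changed by between -0.22 and 0.02 and did not pass. Hsf1 was not analysed here.

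The members were also grouped by inducibility and by cell compartment, and differences between these groups were not tested. Of 13 listed heat-inducible members, 11 had a probe set with a single symbol. Of these 11, 10 rose (Hspd1 was the exception), with a median change of 0.90. That count was 6 without withdrawal replicate 1, and 9 with the mean of each gene's probe sets, where Hspa8 did not pass. Hspa8 is on the list although it is described above as constitutive. Dnaja1, which was left out, shares a probe set with Mir207. That probe set changed by 0.38 and did not pass (limma adjusted p = 0.154). Of 10 members of the endoplasmic reticulum 3 rose (Dnajb9, Dnajc10 and Hspa13), with a median of 0.31, and the count was 3 with any 1 array left out. Dnajb11 (ERdj3), the main J protein that delivers secretory proteins to BiP, had 9.08, 9.32 and 9.14 in withdrawal livers and 9.1, 9.25 and 9.01 in continuous livers (change 0.06, SE 0.15, adjusted p = 0.842). Of 6 mitochondrial members 1 rose (Hspe1), with a median of 0.24, and the count was 0 with any 1 array left out other than continuous replicate 1, and 2 after centring, with array weights or with trend and robust options. The background for these counts is the 7.58% of all genes that rose. The mitochondrial list also names Dnajc19, left out because its probe sets carry other symbols too. They changed by -0.50 and -0.56 and did not pass (limma adjusted p = 0.134 and 0.0541).

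The chaperones that work beside these families were read from lists of their own. Of 12 measured HSP90 cochaperones 4 rose and 0 fell, and all 12 changes were above 0 (median 0.52, against -0.06 over all genes). The background for the counts of this paragraph is 7.58% of all genes higher and 3.39% lower. Chordc1, an HSP90 partner that is itself heat-inducible, had 9.37, 9.50 and 9.26 in withdrawal livers and 8.05, 7.56 and 8.15 in continuous livers (change 1.46, SE 0.18, adjusted p = 8.62e-04). Stip1 (HOP), which joins HSP70 to HSP90, had 9.74, 9.70 and 9.53 against 8.61, 8.27 and 8.44 (change 1.22, SE 0.15, adjusted p = 9.12e-04). Ahsa1, the activator of the HSP90 ATPase, rose by 0.82 (adjusted p = 0.00780). Fkbp5, a peptidyl-prolyl isomerase named here after its value was seen, rose by 0.85 (adjusted p = 0.00974), though not without withdrawal replicate 1 (0.0566). Of 13 measured subunits of the cytosolic chaperonin TRiC and of prefoldin, which fold actin and tubulin, 6 rose and 0 fell (median 0.54), with Cct3 (0.82), Cct7 (0.80) and Cct2 (0.65) having the smallest p-values. This count was 0 without withdrawal replicate 1, where 4.22% of all probe sets passed and Cct3 had an adjusted p of 0.0565 in limma. It was 6 without continuous replicate 1, and 3 without any other single array. Of 17 chaperones of the endoplasmic reticulum and mitochondria outside the families, 0 passed in limma's test, and 4 had an unadjusted p under 0.05. Those 4, named here after their values were seen, were Sil1 (-0.51), Creld2 (0.51), Lonp1 (0.42) and P4hb (0.40). With array weights 2 of them rose. For every measured gene of the endoplasmic reticulum on this list except Canx, continuous replicate 2, with the high acinar markers, was the highest continuous array. Its part in these changes was not tested.

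**Figure D3:**
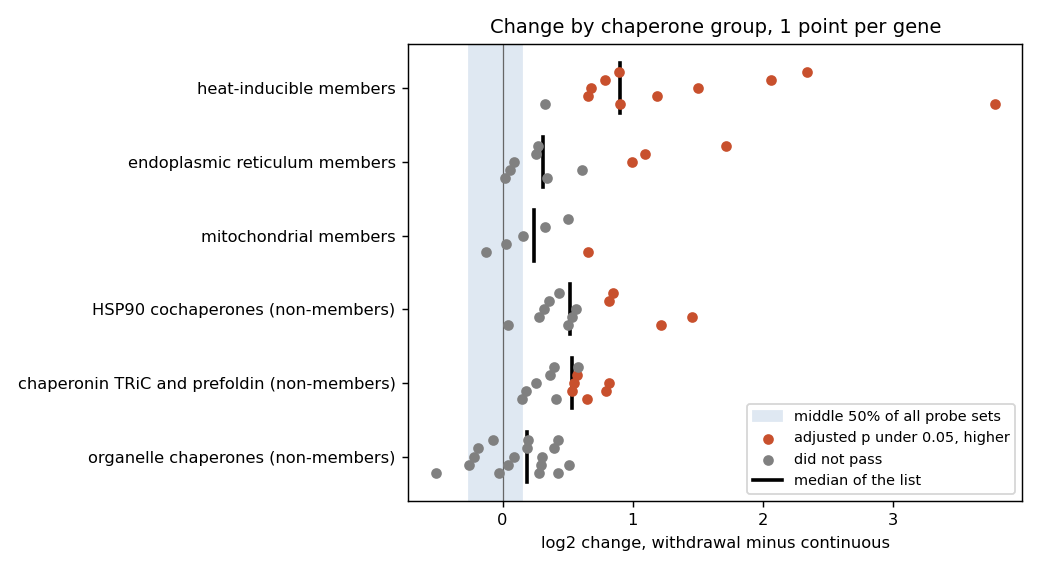
Log2 change after NTBC withdrawal by chaperone group, 1 point per gene with the median as a black bar, orange where the adjusted p was under 0.05. The heat-inducible members have a median of 0.90 and the organelle chaperones outside the families one of 0.19, and the shaded band runs between the quartiles of all probe sets.

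Promoters are shown because genes bound by heat shock factor 1 carry heat shock elements, inverted repeats of GAA units, near their start. Binding of this factor was not measured here. The letters GAANNTTC or TTCNNGAA, each its own reverse complement, so that a single search covers both strands, were looked for in windows from 250 bases before to 50 bases after each start (RefSeq, GRCm38.p6). Overlapping matches were counted as part of the same gene. The table held windows for 64 of the 78 genes. The letters were in at least 1 window of 10 of 20 genes that rose (50%), of 7 of 44 that did not pass (15.9%) and of 4587 of all 27025 genes (17.0%). Runs of at least 3 alternating units (overlapping matches) occurred in 3 of the 20 and in 1 of the 44, against 0.662% of all genes. The heat-inducible list had the letters in 8 of 9 genes with a window. Its genes were listed for being heat-inducible, so this share is not a result of these data. The same limit holds for much of the 50% above. Of those 10 genes, Hspa1a, Hspa1b, Hspb1, Hsph1, Hspe1, Dnajb4 and Bag3 are on that list. Only Dnajb6, Dnajc10 and Hspb8 are not. These counts are not of independent promoters, since Hspa1a and Hspa1b have near-equal windows and Hspe1 and Hspd1 share bases. The run shared by Hspe1 and Hspd1 counts both among the 20 and among the 44. The stretches below carry them in capitals, from the promoters of genes with large rises and of Hspe1, whose capitals are 3 overlapping matches in a row.
Hspa1b: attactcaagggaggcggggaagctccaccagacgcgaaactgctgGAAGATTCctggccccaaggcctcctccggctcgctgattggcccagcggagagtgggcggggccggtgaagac
Hspb1: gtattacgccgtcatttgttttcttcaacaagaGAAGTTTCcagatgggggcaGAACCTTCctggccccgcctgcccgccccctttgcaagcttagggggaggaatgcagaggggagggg
Hsph1: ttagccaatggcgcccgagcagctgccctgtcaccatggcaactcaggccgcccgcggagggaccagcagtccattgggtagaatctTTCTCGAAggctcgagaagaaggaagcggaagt
Hspe1: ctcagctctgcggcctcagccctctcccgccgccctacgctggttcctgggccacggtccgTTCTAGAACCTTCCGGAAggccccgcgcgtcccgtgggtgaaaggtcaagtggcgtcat

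These are chr17:34959269-34959388 (minus strand) for Hspa1b, chr5:135887769-135887888 (plus) for Hspb1, chr5:149636337-149636456 (minus) for Hsph1 and chr1:55087998-55088117 (plus) for Hspe1. Counted from the start, they run from -150 to -31, and for Hsph1 from -120 to -1. Hspa1a has the same 120 bases as Hspa1b, and the windows of the pair are equal at 296 of 300 positions, although the probe sets of the pair changed by 0.89 and 3.78. A window of Hspd1 shares 285 of its 300 bases with that of Hspe1, since both genes start from 1 stretch of DNA in opposite directions, and their changes were 0.33 and 0.65. Besides Hspe1, the genes with such a run were Hsph1, where it lies after the start and outside the printed stretch, Dnajb6 and Hspd1. The letters were not found in the windows of Dnajb1 or Dnajb9.

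**Figure D4:**
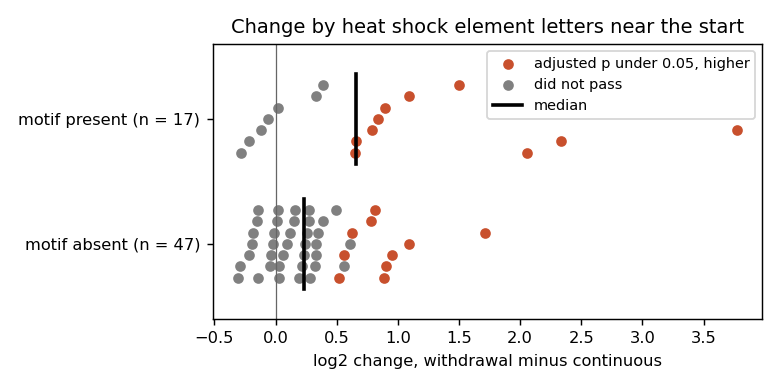
Log2 change of the 64 chaperone genes with a promoter window, by presence of the heat shock element letters, with 1 point per gene and the median as a black bar. The 17 genes with the letters have a median change of 0.66 and the 47 without them 0.23, and both rows hold genes that rose and genes that did not pass. Of the 17 genes, 8 are on the heat-inducible list.

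Among the continuous arrays the genes with a rise of at least 2-fold did not move together in every case. Continuous replicate 3 was the highest of its group for 5 of these 9 genes, among them Hspa1b, Hsph1 and Bag3, and not for Hspb1 or Hsp90aa1, where continuous replicate 2 was the highest. Withdrawal replicate 3 was the lowest of its group for 17 of the 24 genes that rose, and for 43 of all 78 chaperone genes.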

How the data were processed

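Liver RNA was measured on 6 Affymetrix whole-transcript arrays, 3 per group. The deposited table holds normalized intensities on a linear scale, 1 per probe set and array. Transcriptome Analysis Console was used, per the submitters' processing notes, and its version, background correction and normalization are not given in the sources used here. The table has no detection flags, so a low signal does not show that a transcript was absent, and the number of arrays limits the precision.

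Intensities were turned to log2 and not normalized again. Median log2 signals of the arrays were 5.21 to 5.44. Genes were named from the platform annotation (23521 probe sets with 1 symbol, 1814 with several, 9137 with none), and those with several were not used to name genes. All 78 identifiers matched RefSeq's GRCm38.p6 gene table, and 0 symbols changed. A linear model per probe set, over all 34472, used limma 3.58.1 (R 4.3.3) with lmFit and eBayes (10.2 total degrees of freedom, two-sided, no filter), and the fit was tested on simulated data. The members, classes, lists and tests were chosen with earlier results of these data known. The rule for named genes gave array values for members that passed, up to 15 by size in each direction, and for 20 listed members whatever their values. From lists of other genes it took, of those that passed, the 3 with the smallest p. Array values of Hspa2 and Dnajb6 are given beyond it. The alternatives were quantile normalization, median centring, a filter on dim probe sets, probe sets with 1 symbol only, the replicate number as a block, array weights, limma's trend and robust options, averaging over the probe sets of each gene, and each array left out.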

Additional observations from a re-analysis of the deposited data

Results flagged for a closer look

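Data outside the comparisons above held a signal on a probe set that is annotated to both Hspa1a and Hspa1b and therefore names neither gene. It had 4.88, 4.83 and 4.76 in withdrawal livers and 3.78, 3.56 and 4.11 in continuous livers, a log2 change of 1.01 (limma adjusted p = 0.00467). The signals of all 3 continuous arrays were below the lower quartile of their array, so the size of this change rests on dim signals. In all, 15 probe sets carry a chaperone symbol of the pattern beside another symbol, and 1 of them was higher after withdrawal and 0 lower, against 6.21% and 3.20% of all probe sets.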

How the results depend on the processing

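No chaperone gene fell under any of the 14 alternatives, and 14 of the 24 that rose passed in all of them. The count of 24 was 22 to 28 over the settings that keep all 6 arrays. With 1 array left out it was 14 to 22, beside 1454 to 4210 probe sets in all. The other counts over left-out arrays were 2 to 5 HSP70 genes, 1 HSP90 gene, 2 small heat shock protein genes, 5 to 8 DNAJ genes, 6 to 9 heat-inducible members, 3 members of the endoplasmic reticulum, 0 to 1 mitochondrial members, 3 to 5 HSP90 cochaperones, 0 to 6 genes of TRiC and prefoldin, and 0 to 1 organelle chaperones. Median changes over left-out arrays were 0.23 to 0.32 for all 78 genes, 0.49 to 0.64 for HSP70, 0.50 to 0.70 for HSP90, -0.12 to -0.05 for small heat shock proteins and 0.15 to 0.28 for DNAJ genes. Scaling moved the medians, which were 0.16 (all 78 genes) and 0.0881 (DNAJ) with quantile normalization and 0.37 (all), 0.66 (HSP70), 0.04 (small heat shock proteins) and 0.31 (DNAJ) after median centring. Centring shifted the median of all probe sets to 0.02, against -0.08 as deposited, and the higher share of all calls to 77.2%, against 66.0%. The HSP70 median was 0.46 with the mean of each gene's probe sets. The number of probe sets past the threshold was 5588 with array weights. TRiC and prefoldin genes higher were 3 with quantile normalization and 3 with the replicate number as a block. The block left 22 of the 24 chaperone genes, without Hspa4 and Hspa1l, and deviations of arrays with the same number correlated at 0.16, -0.12 and 0.22, so the numbers were not taken as pairs. Mitochondrial members higher were 2 after centring, with array weights and with trend and robust options. Organelle chaperones higher were 2 with array weights and 1 with trend and robust options, which also gave 7 HSP90 cochaperones. Changes near 0 turned sign for Dnajb11 (-0.0878 with quantile normalization, and -0.0100 to 0.125 over left-out arrays) and Hsp90b1 (-0.0345 with array weights, and -0.0767 to 0.113 over left-out arrays). The cause of these shifts was not tested. The alternatives for the chaperone groups and for genes outside the families were added after seeing the data.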
